A study of Arabidopsis thaliana with 28 samples.

Results

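Extensins are structural glycoproteins of the plant cell wall, and the 10 extensin loci described here were chosen by name for the roots of Arabidopsis thaliana, over all 12 groups of oxygen level and duration. A locus was measured through a probe set, the group of short array probes designed for 1 transcript, and only probe sets that the array annotation gives to a single gene were used. By that rule 5 of the 10 loci were measured, out of 13355 genes with such a probe set. The measured loci are AT3G28550, AT3G54580, AT3G54590 (HRGP1, named for a hydroxyproline-rich glycoprotein), AT4G08410 and AT5G06630. AT4G08400 is on the array only in a probe set shared with AT4G08410, and AT1G76930 (EXT4), AT2G24980 (EXT6), AT4G13390 (EXT12) and AT5G06640 (EXT10) have no probe set that the annotation used here names.

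Seedlings of the ecotype written as col2 were grown on vertical agar plates with sucrose under day and night cycles, with the roots on the agar surface. They were then kept in continuous darkness under a stream of gas with 1%, 4%, 8% or 21% oxygen, and roots were frozen after 0.5, 2 or 48 h. The 21% groups are the controls, so they share the darkness, the gas stream and the added carbon dioxide with the low-oxygen groups of the same duration. Each of the 28 samples was hybridised to 1 array, with 2 arrays in 8 groups and 3 in 4 groups, and the labels mark each array with a letter, A to G, as its replicate. The labels do not say whether letters stand for separate cultures, so the p-values below measure only the spread between these arrays.

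Extensin chains carry repeats rich in serine and proline. Prolyl hydroxylases, enzymes that use molecular oxygen, convert many of the prolines to hydroxyproline, and sugars are then attached to hydroxyproline and serine. In the wall, peroxidases link extensin chains through tyrosine into a network, and in Arabidopsis roots several extensins are known from growing root hairs. The question of the comparisons below is how the transcripts of these wall proteins stand in roots at each oxygen level and duration.

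On the RefSeq assembly TAIR10.1, AT3G28550 lies on chromosome 3 from 10700562 to 10704018. AT3G54580 (chromosome 3, 20200573 to 20203919) and HRGP1 (chromosome 3, 20206128 to 20208783) are neighbours with 2208 bases between them. AT4G08400 (chromosome 4, 5323606 to 5325374) and AT4G08410 (chromosome 4, 5338819 to 5341209) lie 13444 bases apart, and AT5G06630 (chromosome 5, 2036312 to 2037855) lies 1742 bases from AT5G06640 (chromosome 5, 2039598 to 2041928). EXT4 lies on chromosome 1 (28895301 to 28897120), EXT6 on chromosome 2 (10622396 to 10624309) and EXT12 on chromosome 4 (7783791 to 7785366). The probe sets of AT3G28550 and AT3G54580 have the suffix of a unique design. Those of HRGP1, AT4G08410 and AT5G06630 end in x, the maker's mark for probes that may also bind other sequences, so for these 3 loci signal from near-identical extensins cannot be separated.

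The values are array signals on a linear scale that the authors set to the same level on every array, with a trimmed mean of 100.007 to 100.01. The arrays of letter B, all at 48 h, stood apart, with a 20th percentile of 10.4 to 11.4 against 3.89 to 7.27 on the other 25 arrays and a maximum of 11589 to 16530 against at most 6389. The number of arrays limits the precision. Of the marker lists for other tissues and cell types, 1 of 10 shoot loci was measured, RCA (Rubisco activase), with signals of 28.3 to 237, and 2 of 8 root hair loci were measured, the expansins EXPA7 (14.4 to 153) and EXPA18 (30.1 to 171). None of the listed loci for non-hair epidermis, endodermis, stele, root cap and root tip had a single-gene probe set, so the makeup of the root samples was checked only through these 3 genes. RCA differed by letter after 48 h, with 101 to 168 on the F arrays, 28.3 to 34.1 on the A arrays and 48.9 to 59.7 on the B arrays. After 2 h the E arrays had RCA signals of 199 at 1% and 86.2 in air, and the other arrays of that duration 35.4 to 119. The relation of RCA to the extensin signals was not tested. Fewer cells of a type and less RNA per cell cannot be told apart in such whole roots.

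After 0.5 h all 5 extensins gave signals of 46.2 or more on each of the 9 arrays, above the 20th percentile of any array. For AT3G28550 the signals were 233 (D) and 340.4 (F) at 1% oxygen, 242 (D) and 175 (F) at 4%, 122 (C) and 157 (G) at 8%, and 132 (C), 325 (F) and 196 (G) in 21% oxygen. For HRGP1 they were 451 (D) and 362 (F) at 1%, 515 (D) and 162 (F) at 4%, 346 (C) and 342 (G) at 8%, and 339.9 (C), 306 (F) and 414 (G) in air of 21%. The arrays at 4% held both the highest and the lowest HRGP1 signal of the duration, and each low-oxygen group overlapped with the air group in both loci. AT3G54580 had signals of 143 (D) and 111 (F) at 1%, 148 (D) and 46.2 (F) at 4%, 71.4 (C) and 99.5 (G) at 8%, and 67.7 (C), 86.2 (F) and 129 (G) in air. AT4G08410 ranged from 48.1 to 94.4 and AT5G06630 from 70.7 to 205 over the 9 arrays, both with the lowest value in array F at 4% and the highest in air array G.

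At this duration none of the 5 loci passed the threshold (limma, Benjamini-Hochberg adjusted p under 0.05) at 1%, 4% or 8% oxygen, where 0.0518%, 0.0444% and 0.0148% of the 13513 probe sets tested did. The differences from air, in log2(signal + 6), lay between -0.02 and 0.46 at 1%, with a median of 0.20 against 0.02 over all probe sets. At 4% they lay between -0.45 and 0.02 (median -0.12) and at 8% between -0.54 and -0.03 (median -0.11). The 95% intervals of the single loci reached from -2.08 to 2.19. Each includes a 2-fold difference in at least 1 direction, so the test shows neither a change nor its absence at that size. No locus had low-oxygen arrays that were all above or all below the air arrays, where 15.6%, 14.9% and 10.8% of all probe sets did.

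Set against each other, 1% and 8% oxygen after 0.5 h gave higher signals at 1% for all 5 extensins, with no overlap of the 2 arrays a group. Of all probe sets, 20.7% were higher in this way and 10.6% lower. The differences were 0.99 for AT3G28550 (95% interval -0.70 to 2.69), 0.55 for AT3G54580, 0.23 for HRGP1, 0.21 for AT4G08410 and 0.31 for AT5G06630. None passed the limma test, which called 0% of all probe sets in this comparison. The 1% arrays are D and F and the 8% arrays are C and G, so the groups share no letter. Within 0.5 h they are linked only through the air arrays of letters C, F and G. With the letter as a block over all durations, which also draws on the arrays of 2 and 48 h, the differences were -0.06, 0.45, 0.18, 0.31 and 0.39 in the same order. Again none was past the threshold (limma).

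**Figure D1:**
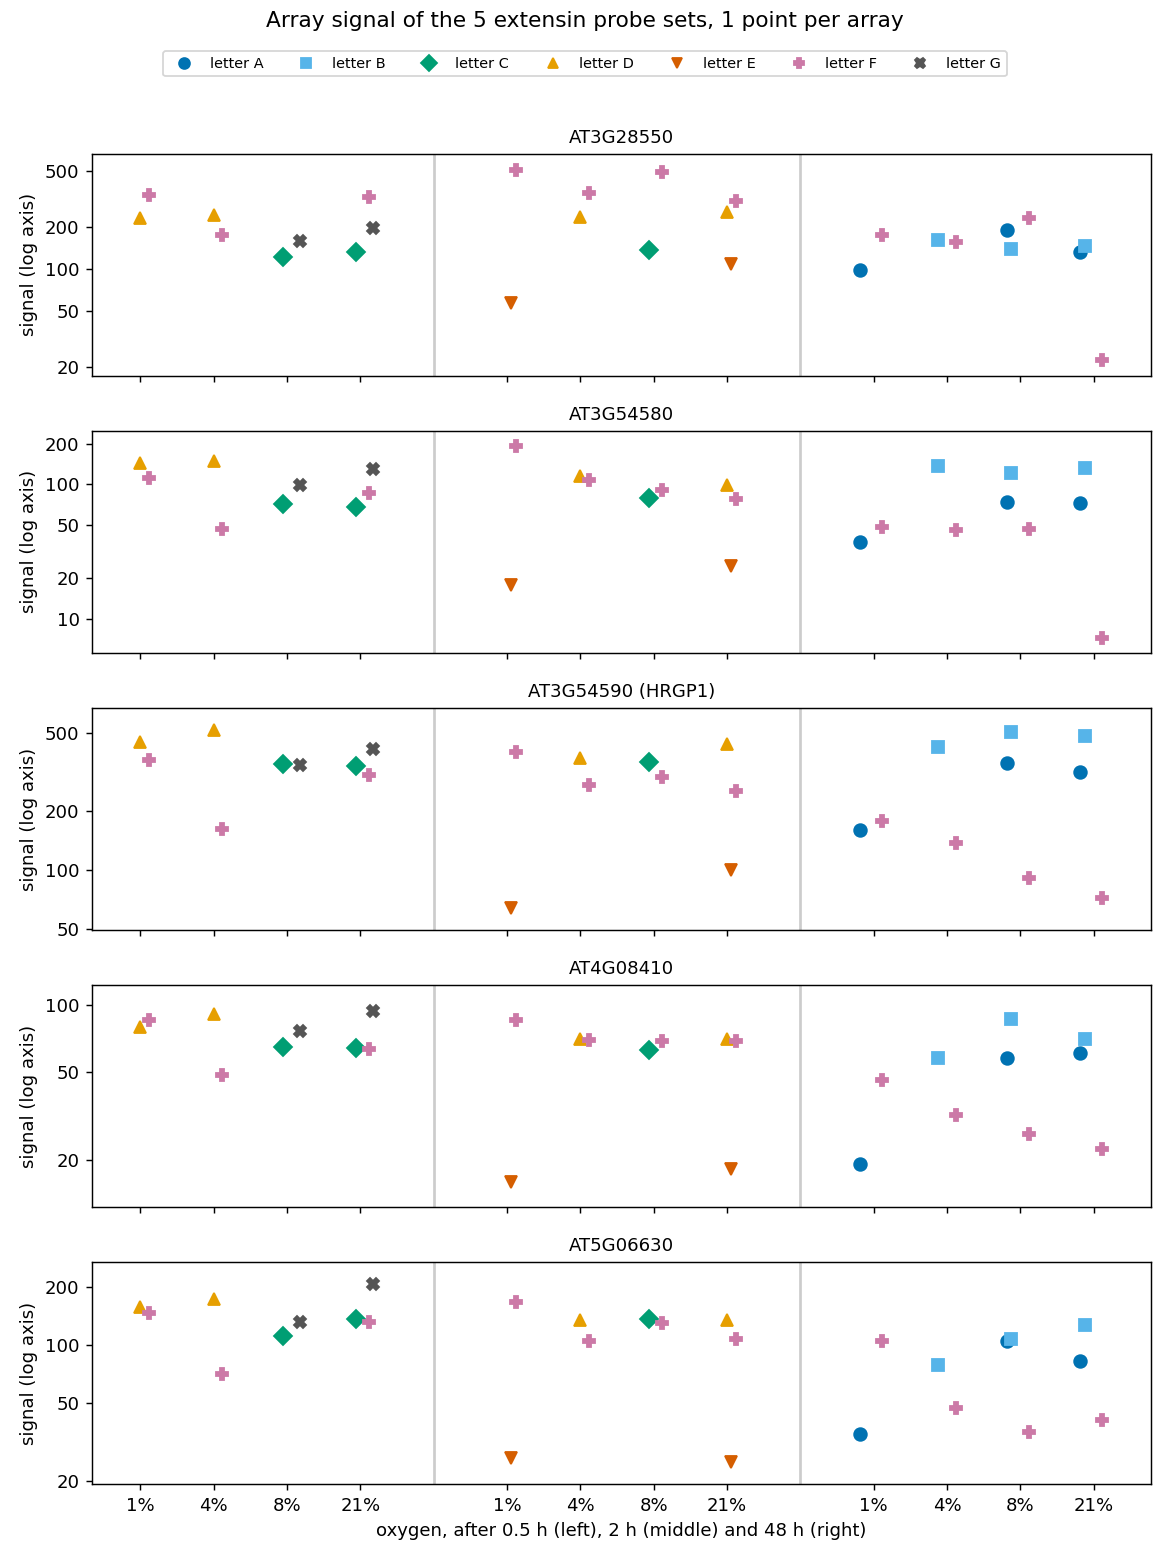
Signal of each of the 5 measured extensin probe sets (vertical log axis) on all 28 arrays, by oxygen level within 0.5 h, 2 h and 48 h, with 1 point per array and the marker giving the replicate letter. The letter E arrays at 2 h are the lowest of that duration in every panel, and AT3G28550 runs from 22.4 in air array F after 48 h to 511.5 in array F at 1% after 2 h.

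After 2 h the extensins were spread more widely, and the spread lay between arrays of 1 group. AT3G28550 gave 57.4 (E) and 511.5 (F) at 1% oxygen, 237 (D) and 351 (F) at 4%, 137 (C) and 491 (F) at 8%, and in air 254 (D), 109 (E) and 307 (F). AT3G54580 gave 17.8 (E) and 191 (F) at 1%, 115 (D) and 107 (F) at 4%, 79.3 (C) and 90.8 (F) at 8%, and in air 98.3 (D), 24.5 (E) and 77.1 (F). In both loci the 2 lowest signals of the duration were those of the letter E arrays, 1 at 1% oxygen and 1 in air. HRGP1 gave 64.6 (E) and 401 (F) at 1%, 371 (D) and 271 (F) at 4%, 356 (C) and 299 (F) at 8%, and in air 439 (D), 101 (E) and 253 (F). AT4G08410 gave 16.0 (E) and 85.3 (F) at 1%, 70.3 (D) and 69.6 (F) at 4%, 62.5 (C) and 68.8 (F) at 8%, and in air 70.4 (D), 18.2 (E) and 68.7 (F). For AT5G06630 the corresponding signals were 26.1 (E) and 166 (F), 134 (D) and 105 (F), 136 (C) and 130.3 (F), and 134 (D), 24.9 (E) and 108 (F). Outside the letter E arrays, the 7 signals of AT4G08410 lay between 62.5 and 85.3 at every oxygen level.

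The 2 arrays of letter E were below the other 7 arrays of 2 h in all 5 extensins, a pattern noticed in the values and not tested. Of all probe sets, 11.9% had both E arrays below the rest. EXPA7, the root hair expansin, did not have this pattern, with 53.9 (E) and 57.7 (F) at 1%, and with air arrays at 93.3 (D), 103 (E) and 115 (F). EXPA18 had it by a narrow margin, with 76.0 and 79.4 on the E arrays and 82.4 to 142 on the other 7. The ratio of 3′ to 5′ signal of the GAPDH control probes, a measure of RNA integrity that is lower for more intact RNA, was 0.726 to 0.783 on the E arrays and 0.904 to 1.76 on the other 7 arrays of 2 h. For the actin control probes it was 5.95 to 7.58 and 6.07 to 16.1. The letter G arrays of 0.5 h also had GAPDH ratios under 0.783, namely 0.702 at 8% and 0.755 in air, with mean centred extensin levels in log2 of 0.29 and 0.66, above the mean of the 28 arrays. The part of RNA quality in the low extensin signals was not tested.

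No extensin passed the test against air after 2 h at 1%, 4% or 8% oxygen, where 0.34%, 0.126% and 0.0222% of all probe sets did. At 1% the log2 differences lay between -0.45 and 0.10, with a median of -0.21 against -0.02 over all probe sets, and 95% intervals that reached from -2.12 to 1.84. At 4% all 5 estimates were above 0, between 0.48 and 0.87 with a median of 0.56, and at 8% they lay between 0.34 and 0.82 with a median of 0.50. Those positive values rest on air array E: without the letter E arrays the median was 0.01 at 4% and -0.03 at 8%. At 1% the median without them was 0.45. The 4% arrays of AT3G54580 (115 and 107) were both above its air arrays (at most 98.3), the only extensin whose groups did not overlap in these 3 comparisons, while at 4% 12.5% of all probe sets had groups that did not overlap, at 1% 21% and at 8% 11.3%.

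Arrays that share a letter were also set against each other at 2 h. Within 2 h only 5 of 8 same-letter pairs had deviations from their group means that correlated above 0.1. The letter was therefore not taken to pair arrays at this duration, and the differences below are a description. Of all probe sets, 53.0% were higher at 1% than in air in letter E and 52.5% in letter F. In letter E, the 1% array was below the air array for 4 of the 5 extensins, with log2 differences from -0.86 for AT3G28550 to 0.05 for AT5G06630. In letter F, the 1% array was above the air array for all 5, by 0.29 (AT4G08410) to 1.25 (AT3G54580). The 2 letters therefore gave opposite signs for 4 loci. In letter D, 4% and air differed by -0.24 to 0.22, and in letter F by -0.03 to 0.45. At 8%, letter F gave 0.00 to 0.67.

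**Figure D2:**
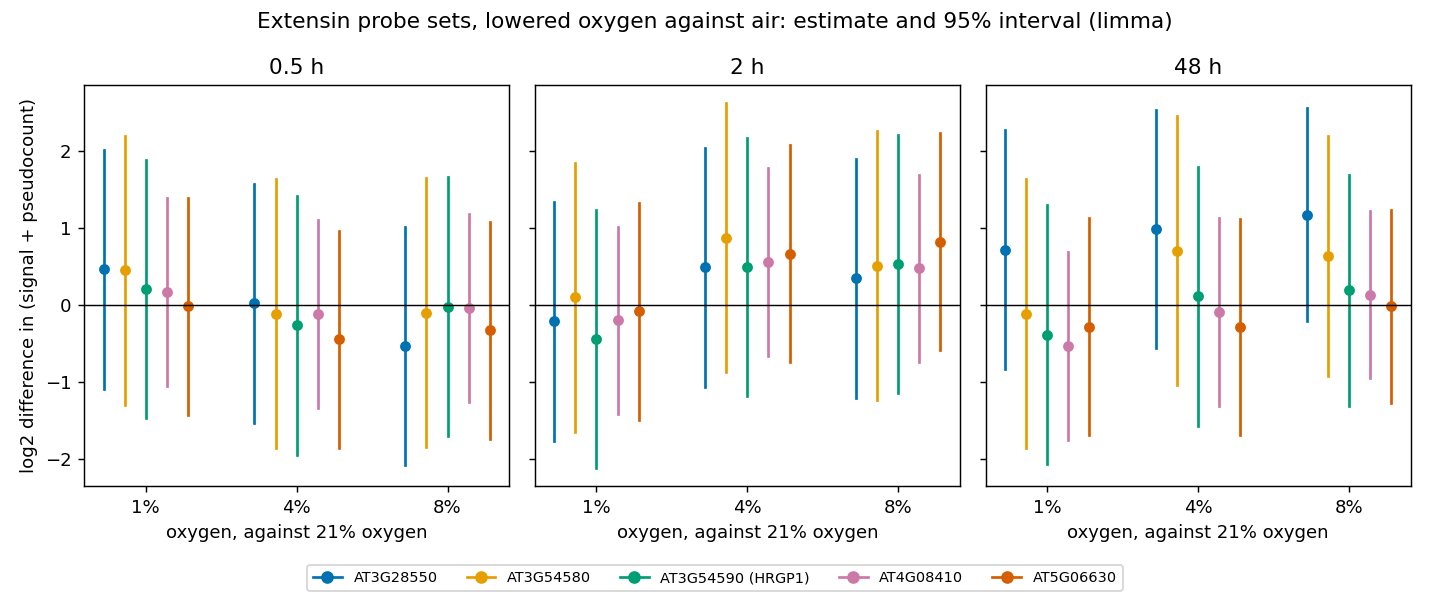
Difference in log2(signal + 6) between 1%, 4% or 8% oxygen and 21% oxygen of the same duration for the 5 extensin loci, with points for the estimates and vertical lines for the 95% intervals of the limma fit to all 28 arrays. All 45 intervals include 0, and their half-widths lie between 1.09 and 1.75.

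After 48 h the highest and lowest signals were again found within groups. AT3G28550 gave 98.8 (A) and 175 (F) at 1% oxygen, 162 (B) and 157 (F) at 4%, 190.0 (A), 138 (B) and 232 (F) at 8%, and 132 (A), 145 (B) and 22.4 (F) in air. Here 9 of the 10 arrays lay between 98.8 and 232, and air array F alone was far below. AT3G54580 gave 37.1 (A) and 48.1 (F) at 1%, 136 (B) and 45.4 (F) at 4%, 74.4 (A), 122 (B) and 46.4 (F) at 8%, and 73.0 (A), 132 (B) and 7.27 (F) in air. HRGP1 gave 161 (A) and 179 (F) at 1%, 423 (B) and 137 (F) at 4%, 351 (A), 508 (B) and 91.7 (F) at 8%, and 315 (A), 480.4 (B) and 72.3 (F) in air. In both of these loci the letter B arrays were the highest at each level that has one, and the letter F arrays the lowest at 4%, 8% and 21%.

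AT4G08410 gave 19.2 (A) and 45.9 (F) at 1%, 58.0 (B) and 31.8 (F) at 4%, 57.7 (A), 86.8 (B) and 26.1 (F) at 8%, and 60.6 (A), 70.3 (B) and 22.5 (F) in air. AT5G06630 gave 34.8 (A) and 105 (F) at 1%, 78.7 (B) and 47.3 (F) at 4%, 105 (A), 108 (B) and 35.6 (F) at 8%, and 82.7 (A), 127 (B) and 41.2 (F) in air. In these 2 loci the F arrays were again the lowest at 4%, 8% and 21%, and at 1% array A was below array F.

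None of the 5 loci passed against air after 48 h, where the test called 0.0962% of all probe sets at 1%, 0.037% at 4% and 0% at 8%. The median log2 differences were -0.29 at 1% (all probe sets -0.11), 0.11 at 4% and 0.19 at 8%. In the fit without the letter, the smallest unadjusted p of all 45 comparisons of an extensin with air was that of AT3G28550 at 8%, 0.0935. Its difference was 1.17 (95% interval -0.22 to 2.55, limma adjusted p = 0.9998, n = 3 and 3 arrays). The differences of AT3G28550 at 1%, 4% and 8% were 0.71, 0.98 and 1.17, and without air array F they were -0.07, 0.20 and 0.39. The 4% arrays of AT3G28550 (162 and 157) were both above its air arrays (at most 145), the only case without overlap, where 9.75% of all probe sets had none at 4%, 12.7% at 1% and 2.29% at 8%.

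The letters A and F gave opposite answers at 1% oxygen after 48 h. In letter A all 5 extensins were lower at 1% than in air, with log2 differences of -0.39 (AT3G28550), -0.87 (AT3G54580), -0.94 (HRGP1), -1.40 (AT4G08410) and -1.12 (AT5G06630). In letter F all 5 were higher at 1% than in air, by 2.67, 2.03, 1.24, 0.87 and 1.24 in the same order. Among all probe sets, 29.3% were lower in letter A and higher in letter F. In the 1% array of letter A, EXPA7 (14.4) and EXPA18 (30.1) were also at their lowest of the 28 arrays, against 41.9 and 89.9 in air array A, and their part in the low extensin signals was not tested. Without the 4 letter F arrays the median extensin difference at 1% was -1.28, still with 0 loci past the threshold, and without the letter B arrays it was 0.15.

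At 4% and 8% the same-letter differences after 48 h also depended on the letter. In letter B, 4% and air differed by -0.65 to 0.15 and 8% and air by -0.22 to 0.28. In letter A, 8% and air differed by -0.07 to 0.51. In letter F, AT3G28550 was higher than in air by 2.52 at 4% and 3.07 at 8% and AT3G54580 by 1.95 and 1.98, and the other 3 loci differed by -0.18 to 0.87.

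Over the 9 comparisons with air, 0 of the 45 extensin values passed after adjustment in the fit without the letter. In that fit 0 had an unadjusted limma p under 0.05. With the letter as a block over all durations 0 passed as well. There, 1 value had an unadjusted limma p under 0.05, at 8% after 48 h (limma adjusted p = 0.636). The block changed the standard errors, for HRGP1 at 1% after 0.5 h from 0.80 to 0.50. Without the letter the 45 estimates lay between -0.54 and 1.17, 24 of them above 0, with standard errors of 0.52 to 0.84. Each of the 45 intervals of this fit extends past a 2-fold difference in at least 1 direction, and 33 do so in both. The fit without the letter therefore shows neither a change nor its absence at that size. The comparisons of 1 duration share their air arrays. A response at 1% that differs between 2 and 48 h, at 4% or 8% between 2 and 48 h, or at 1% between 0.5 and 2 h was not detected for any of the 5 loci (limma, smallest adjusted p = 0.9997), with 0.0518%, 0%, 0% and 0.0222% of all probe sets past the threshold in these 4 tests.

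Between the lowest and the mildest decrease of oxygen, no extensin passed at 2 h or 48 h, where 0.111% and 0.0148% of all probe sets did. At 2 h all 5 were lower at 1% than at 8%, by a median log2 difference of -0.68, and without the letter E arrays the median was 0.35. At 48 h all 5 estimates were below 0 with a median of -0.57 (all probe sets -0.11), and with each array centred on its median signal it was -0.40. This 48 h median ran from -1.07 to -0.15 with single arrays left out, and it was -1.36 without the letter F arrays and -0.29 with the letter as a block.

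**Figure D3:**
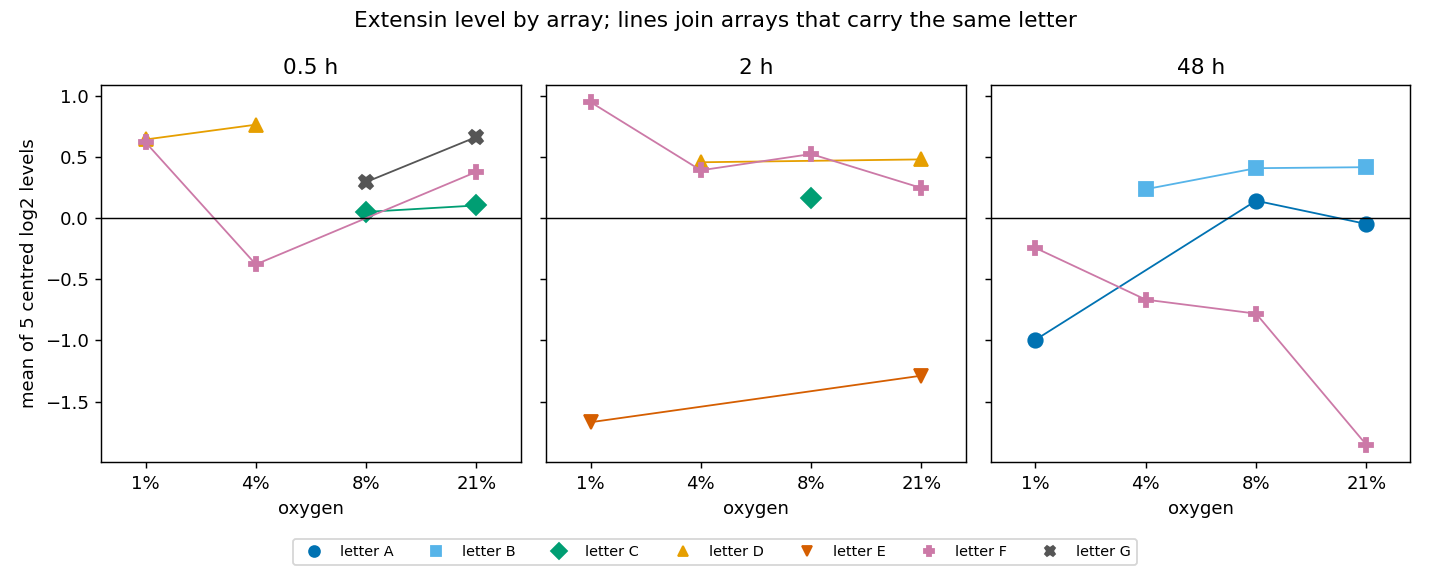
Mean over the 5 extensins of log2(signal + 6) after centring each locus on its mean over the 28 arrays (vertical axis), by oxygen level in panels for 0.5, 2 and 48 h, with lines that join arrays of the same letter. The lowest arrays are air array F after 48 h (-1.85) and the letter E arrays after 2 h (-1.67 at 1% and -1.29 in air), and the highest is array F at 1% after 2 h (0.95).

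The length of the treatment was compared at a constant oxygen level. In air, 0 extensins passed between 0.5 and 2 h, with 0% of all probe sets called, and the median log2 difference was -0.61 with the letter E array and -0.06 without the letter E arrays. Between 2 and 48 h in air, 0 passed, where 5.47% of all probe sets did. AT3G28550 came nearest, lower after 48 h by a log2 difference of -1.33 (95% interval -2.71 to 0.06, limma adjusted p = 0.286), and the other 4 differed by -0.29 to 0.06. At 8%, 4% and 1% oxygen the median differences between 48 and 2 h were -0.34, -0.63 and -0.31 with 0 loci past the threshold, where 1.49%, 0.237% and 1.26% of all probe sets passed. Groups did not overlap for AT3G28550, AT4G08410 and AT5G06630 at 4%, each lower after 48 h, where 16.1% of all probe sets were lower in this way, and for AT5G06630 at 8%, where 11.4% were.

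Letter F is the only letter with arrays at both 2 and 48 h, and it has one at each oxygen level. In it all 5 extensins were lower after 48 h than after 2 h at all 4 oxygen levels, 20 differences of 20. Among all probe sets, 23.9% were lower at all 4 levels in letter F, and the median over all probe sets lay between -0.05 and -0.03. For AT3G28550 the signals went from 511.5 to 175 at 1%, 351 to 157 at 4%, 491 to 232 at 8% and 307 to 22.4 in air. The log2 differences of the 5 loci were -1.87 to -0.63 at 1%, -1.14 to -0.95 at 4%, -1.71 to -0.89 at 8% and -3.46 to -1.27 in air. The letters C, D and E of 2 h have no array at 48 h, and A and B of 48 h have none at 2 h, so for them the duration and the letter cannot be told apart. This pattern of 1 letter was noticed in the values and was not tested by itself.

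The order of the 12 group means is given as a description for each extensin and was not tested. AT3G28550 was highest at 4% after 2 h, with a log2 level of 8.20 ± 0.39 (SD, n = 2 arrays), and lowest in air after 48 h, at 6.39 ± 1.36 (n = 3). AT3G54580, HRGP1 and AT4G08410 were highest at 1% after 0.5 h, with 7.05 ± 0.24, 8.68 ± 0.22 and 6.47 ± 0.07 (n = 2). Their lowest means were 5.59 ± 0.23 and 5.18 ± 0.74 at 1% after 48 h for AT3G54580 and AT4G08410, and 7.41 ± 1.79 at 1% after 2 h for HRGP1. AT5G06630 was highest in air after 0.5 h (7.32 ± 0.35, n = 3) and lowest at 4% after 48 h (6.07 ± 0.47, n = 2). The range between the highest and lowest group was 1.25 to 1.81, beside residual SDs of single arrays of 0.69 to 1.01. No 2 neighbours in the order of any locus differed by more than that locus's residual SD. With 12 means in such a range this was likely beforehand, so it does not test the order. Levels on different probe sets cannot be set against each other, since probes differ in brightness.

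The replicate spread of the extensins was among the largest on the array. Their residual SDs, from 0.69 for AT4G08410 to 1.01 for AT3G54580 in log2, compare with a median of 0.36 over all probe sets and exceed 95.2% to 98.9% of them. Beyond the means of the 3 durations, the replicate letter within a duration added 45.8% (AT3G28550) to 74.8% (HRGP1) of the total log2 variance, with 8 degrees of freedom. The oxygen level within a duration added 10.1% (HRGP1) to 19.5% (AT3G28550) of the total, with 9. The medians of these shares over all probe sets were 50.2% for the letter and 17.7% for oxygen, so a larger share for the letter is common on these arrays.

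**Figure D4:**
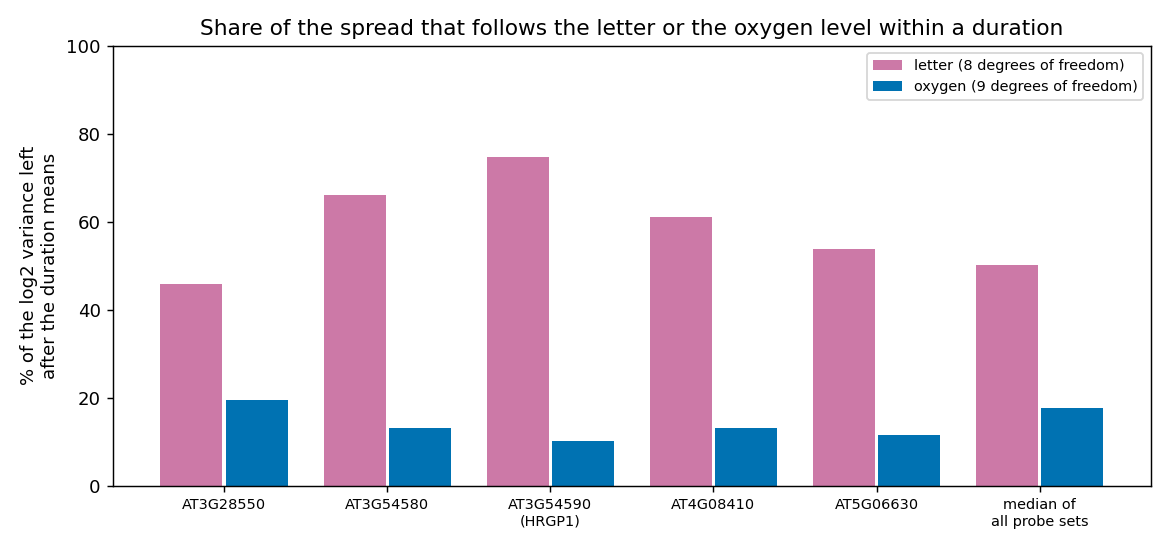
Percent of the total log2 variance (vertical axis) that the replicate letter (8 degrees of freedom) or the oxygen level (9 degrees of freedom) within a duration adds to the duration means, for each extensin and as the median over all 13513 probe sets. The percentages are of the total variance, although the axis label names the variance left after the duration means. Letter and oxygen were each added alone, and their shares overlap. The letter bars are 45.8% to 74.8% for the extensins and the oxygen bars 10.1% to 19.5%, with medians of all probe sets of 50.2% and 17.7%.

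The extensins moved together from array to array. Over the 28 arrays, Pearson's r between pairs of loci lay between 0.55 and 0.96 with a median of 0.86 over the 10 pairs, and Spearman's rho between 0.33 and 0.89. The pair AT4G08410 and AT5G06630, on different chromosomes, had r = 0.96 and rho = 0.87, and the neighbours AT3G54580 and HRGP1 had r = 0.92 and rho = 0.89. In permutation tests with 100000 resamples, two-sided and adjusted over 20 tests, 19 had an adjusted p of 0.00459 or less, and rho of AT3G28550 with HRGP1 (0.33) had an adjusted p of 0.084. The smallest unadjusted p, 2e-05, is the smallest that these permutations can give. The permutations shuffled all 28 arrays freely, without regard to group, duration or letter. Their p-values therefore take the arrays as independent, which arrays that share a group or a letter are not. No r for pairs of other probe sets is given beside these, so whether such likeness is particular to extensins was not tested. Without the 2 arrays farthest from the median of the first locus, r was 0.38 to 0.94, the lowest again for AT3G28550 with HRGP1. Within the durations r was 0.20 to 0.94 at 0.5 h (9 arrays), 0.77 to 0.98 at 2 h (9 arrays) and 0.35 to 0.93 at 48 h (10 arrays). The 3 loci on probe sets whose probes may bind other sequences had pairwise r of 0.89 to 0.96, and binding of the same transcripts by these probes was not tested.

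The probe set shared by AT4G08410 and AT4G08400 was dim, with signals of 2.74 to 24.01 over the 28 arrays. Its lowest and highest signals were 2.74 and 24.01, both in air after 48 h (arrays A and B). It passed in none of the comparisons with air (limma, largest difference 0.35 at 1% after 2 h, adjusted p = 0.9996), and it tells nothing about AT4G08400 by itself.

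Of 8108 probe sets outside the dimmest 40%, the one outside the 5 loci with the pattern most like the mean of the centred extensins over the 28 arrays was AT1G23720, with r = 0.82, as a description. AT1G23720 stands in the list of other extensins used here, and its probe set too may bind other sequences. Its signals were 92.8 and 146 on the letter E arrays of 2 h and 216 to 463 on the other 7 arrays. The next were AT3G50590 (r = 0.79), AT3G20460 (0.79), AT3G09690 (0.78), AT5G49680 (0.78), PYRB (0.77), AT2G23300 (0.77) and AT5G42280 (0.77), of which PYRB is an enzyme of pyrimidine synthesis. AT3G28550 itself had r = 0.78 with that mean, and the other 4 extensins 0.93 to 0.97. Each of the 5 loci is part of that mean, which raises its own r, so these values cannot be set against those of outside genes. The root hair genes GH9C1, EXPA18, EXPA7 and SCN1 had r of 0.72, 0.67, 0.55 and 0.35, ranks 45, 121, 606 and 2214 of the 8108. Loci of other lists lay in the same range, such as the other extensins AT5G11990 (0.66) and AT4G16140 (0.59) and AT3G01720 (0.65), listed with extensin glycosylation. Some were below 0, such as the peroxidases AT5G64100 (-0.41) and AT5G64120 (-0.34).

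Among the genes that make or crosslink extensins, 1 locus listed with the proline hydroxylation enzymes changed with oxygen. AT1G20270 rose at 1% oxygen after 2 h, to signals of 147 (E) and 125 (F) against 35.6 (D), 44.6 (E) and 36.4 (F) in air, a log2 difference of 1.66 (95% interval 1.24 to 2.09, limma adjusted p = 0.000105), where 0.34% of all probe sets passed. It was also higher at 1% than at 8% after 2 h (1.504, limma adjusted p = 0.00357) and lower at 1% after 48 h than after 2 h (-1.51, adjusted p = 0.00169). Both letter E arrays, which were the lowest in the extensins, had AT1G20270 signals above those of the other arrays of their group. The other 7 measured loci of that list passed in none of the 21 comparisons without the letter as a block. Of these, AT3G28480 had 352 (E) and 328 (F) at 1% after 2 h against 162 to 188 in air, a difference of 0.95 (limma adjusted p = 0.121).

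In the remaining lists, 0 of 14 measured other extensins, 0 of 8 leucine-rich repeat extensins, 0 of 4 loci of extensin glycosylation and 0 of 5 root hair genes passed in any of the 21 comparisons without the letter as a block, in which 0% to 5.47% of all probe sets did. The 14 other extensins had median differences from air between -0.24 (1%, 2 h) and 0.20 (4%, 48 h). Of the 7 wall peroxidases 1 passed, AT4G26010, lower at 1% after 48 h than after 2 h (log2 difference -2.22, limma adjusted p = 0.0208), where 1.26% of all probe sets passed. Its signals at 1% were 386 (E) and 374 (F) after 2 h and 33.8 (A) and 166 (F) after 48 h. The lower 48 h signal lay in the same 1% array A that was low in the extensins and expansins. In air AT4G26010 was also lower after 48 h, without overlap of the groups (log2 difference -1.23, limma adjusted p = 0.0621). The air signals were 207 (D), 367 (E) and 386 (F) after 2 h. After 48 h they were 102 (A), 189 (B) and 109 (F). No wall peroxidase passed the test of whether the response at 1% differs between 2 and 48 h. The letter was also fitted as a block over all durations, so this fit does not pair the 48 h arrays alone. In it, 1 of the other extensins, AT1G26240, was higher at 1% than in air after 48 h (1.16, limma adjusted p = 0.00903). The peroxidase AT5G64120 was lower in the same comparison (-1.13, limma adjusted p = 0.00979), where the fit called 2.27% of all probe sets. Its calls between 48 and 2 h are given in the last section. AT1G26240 and AT5G64120 were chosen after their values were seen. No list was tested as a set.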

How the data were processed

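RNA of 28 root samples was biotin-labelled and hybridised to Affymetrix ATH1 arrays, 1 array per sample. The deposited values are linear intensity signals per probe set from MAS5, per the submitters' processing notes, and the file shows that the authors scaled each array to a 2% trimmed mean near 100. The MAS5 version is not given in the sources used here. That scaling was kept and log2(signal + 6) was taken, 6 being the rounded 20th percentile of all values. Of 22810 probe sets, 64 controls were left out; the platform annotation named 1 gene for 13513, several for 503 and none for 8730, with symbols and positions from RefSeq (TAIR10.1). limma 3.58.1 (lmFit, eBayes with an intensity trend, 12 group means, 16 residual degrees of freedom, R 4.3.3) tested 21 comparisons, two-sided, with Benjamini-Hochberg adjustment over the 13513 probe sets of a comparison and a threshold of 0.05. Fits were tested on simulated data. Correlations used scipy 1.17.1.

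The 10 loci and the lists were chosen with earlier results of these data known. All 10 loci are described; of each further list the genes named are up to 4 with the smallest adjusted p, beside those past the threshold, and the 8 genes most like the extensins are named. Samples were grouped by title; 1 array at 8% (48 h, B) also carries the word control in its treatment text and was kept at 8%.

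Whether the letter pairs arrays was read from correlations of deviations from the group means. Same-letter pairs exceeded 0.1 in 6 of 6 cases within 0.5 h (range 0.457 to 0.718), 12 of 12 within 48 h (range 0.328 to 0.728), 5 of 8 within 2 h and 12 of 16 between 2 and 48 h. Between 0.5 and 48 h it was 12 of 12 (range 0.275 to 0.512) and between 0.5 and 2 h 15 of 18. Pairs of different letters exceeded 0.1 in 7 of 24 cases within 0.5 h, 7 of 22 within 2 h and 1 of 25 within 48 h. In a group of 2 arrays the deviations mirror each other, so these pairs are not independent cases. The letter was taken to pair arrays within 0.5 h and within 48 h. Alternatives were quantile normalisation, centring on array medians, pseudocounts of 1.5 and 24, no dim probe sets, no trend, only the durations compared, the letter as a fixed or random block over all durations, and each array left out. A block nested in duration and fits without the arrays of letter E (2 h), F (48 h) or B (48 h) were added after seeing the data.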

Additional observations from a re-analysis of the deposited data

How the results depend on the processing

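No extensin passed against air in any of 815 alternative values, of which 703 kept the sign of the value reported and 112 changed it, and none passed in 260 values of 1% against 8% oxygen or 465 of responses between durations. The calls against air after 0.5 and 48 h were likewise 0 with the replicate letter as a block. Between 48 and 2 h in air, where the letter pairs arrays only through letter F, the block gave 3 extensins past the threshold (limma adjusted p in brackets), all lower after 48 h: AT3G28550 -2.40 (0.0119), AT3G54580 -1.74 (0.0395) and HRGP1 -1.44 (0.0314). The median extensin difference between 48 and 2 h with the block was -1.44 in air, -1.17 at 8%, -1.13 at 4% and -1.46 at 1%. In the same fit 4 of 14 other extensins, 2 of 4 glycosylation loci and 2 of 5 root hair genes were lower in air after 48 h, and 2 of 7 peroxidases were lower and 2 higher. At 8%, 4% and 1% it called 1, 1 and 0 other extensins, 1, 3 and 0 glycosylation loci, 0, 1 and 2 proline hydroxylation loci and 2 peroxidases at each level, all lower after 48 h, where it called 9.35%, 10.1% and 9.21% of all probe sets. A random block gave 1, AT3G28550 -2.01 (0.0163), with a correlation of 0.632. The count of all probe sets there was 739 in the fit reported, 2698 with the block (20% of those tested) and 2584 with the random block, and leaving out single arrays gave 338 to 658. With the block, 224 passed in place of 46 at 1% after 2 h, 28 in place of 17 at 4% after 2 h, 307 in place of 13 at 1% and 23 in place of 5 at 4% after 48 h, 3 in place of 7 at 1% and 1 in place of 6 at 4% after 0.5 h, 49 in place of 15 and 63 in place of 2 between 1% and 8% at 2 and 48 h, and 1263, 1361 and 1245 in place of 202, 32 and 170 between 48 and 2 h at 8%, 4% and 1%. The median extensin difference at 1% after 2 h ran from -1.43 to 1.12 with single arrays left out, the widest range against air, and at 4% after 48 h from -0.54 to 0.90. The response of AT1G20270 at 1% was larger after 2 h than after 0.5 h by 1.69 (limma adjusted p = 0.0474), a call that was lost with the block (1.66, limma adjusted p = 0.0606). AT3G28480 passed at 1% after 2 h with the block (0.96, limma adjusted p = 0.0168). The causes of these differences were not tested. The number of arrays and the spread between letters limit the precision: without the letter, the 95% intervals of the extensins against air have half-widths of 1.09 to 1.75 in log2.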
